A study of Mus musculus with 2 samples.

Results

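Expressed nonsense-mediated decay transcripts were the transcripts that GENCODE M21 classes as nonsense_mediated_decay and that reached 1 TPM (a level scaled to library size and corrected for transcript length) in each of the libraries in the first deposited transcript table. Of 7186 transcripts of that class among 141767 annotated mouse transcripts, 1385 met the rule. They belonged to 1193 of the 4576 genes with such a transcript, all classed as protein-coding genes. A single transcript qualified in 1030 genes, 2 in 137 genes, 3 in 24 genes and more than 3 in 2 genes. Total RNA was measured in hippocampus of male B6CASTF1/J mice, first-generation hybrids of C57BL/6J with CAST/EiJ, aged 18 to 20 months. There was 1 group with 2 biological replicates, each made from 300 ng of RNA. Both carry the same donor identifier, and separate animals are not stated, so the spread between them may be technical. No treatment or second condition was measured, no test between groups was possible and no p-values are given; values stand for replicate 1 and then replicate 2.

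Nonsense-mediated decay (NMD) is a surveillance pathway that degrades messenger RNAs on which a ribosome stops too early. In mammals the signal is usually a stop codon that lies well upstream of an exon junction, where the exon junction complex left by splicing stays on the RNA and recruits the UPF proteins. Annotators apply this position rule to a transcript's predicted reading frame, so the class describes a structure, and the level of such a transcript is what remained in the tissue and not a measure of its decay. Splicing regulators such as the SR proteins and hnRNP proteins are known for so-called poison exons, whose inclusion or skipping brings in an early stop and lowers the amount of functional messenger RNA.

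The sequences below show the end of the annotated reading frame, with the stop codon in capitals, of splicing regulator transcripts that reached a TPM of 1 in both libraries of both transcript tables. They were read 5′ to 3′ from the GENCODE M21 transcript sequences (mm10), and a script found one of the stop codons TAA, TAG and TGA at the annotated end of 1383 of the 1385 transcripts. For the first group, the last 30 coding bases are given, because these stops lie in exons that coding transcripts also use, in whole or in part.
Hnrnpu-206: gtccatgtgaatgtgctgtgtgaagagTAA
Hnrnpa1-203: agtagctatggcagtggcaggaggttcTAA
Srsf6-201: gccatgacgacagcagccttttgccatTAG
Hnrnpdl-201: aatcaccagaacaattaccagccctacTAA
Hnrnpa1-204 ends its frame with the same bases as Hnrnpa1-203 but has more exons after them. For the second group, the whole coding part of the exon with the stop is given, because the exon is a cassette: it lies between exons that are joined directly in a coding transcript, and no coding transcript holds it.
Srsf3-201: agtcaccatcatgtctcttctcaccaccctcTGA
Hnrnpll-203: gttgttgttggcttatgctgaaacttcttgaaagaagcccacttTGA
Tra2a-202: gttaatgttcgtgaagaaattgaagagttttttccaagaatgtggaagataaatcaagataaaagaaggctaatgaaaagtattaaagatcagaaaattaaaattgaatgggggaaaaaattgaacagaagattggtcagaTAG
The Srsf3 exon is exon 4 of 7 on the plus strand (chr17:29039454-29039909), and 34 of its 456 bases are read before the stop. The Hnrnpll exon is exon 7 of 14 on the minus strand (chr17:80044940-80045022), with 47 of 83 bases read. The Tra2a exon is exon 2 of 9 on the minus strand (chr6:49252803-49253108), with 144 of 306 bases read. In each of the 3 a frame that continues from the upstream exon meets a stop within the inserted exon.

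Expected counts over genes came to 34563482 and 32370292. Markers of neurons, astrocytes and oligodendrocytes, summed over 3 genes each, stood at 1414 and 1556, 909.7 and 922.7, and 1021 and 994.7 TPM, and the CA1 genes Wfs1, Fibcd1 and Mpped1 together at 196 and 189 TPM. Choroid plexus markers (Ttr, Kl and Folr1) summed to 34.8 TPM in replicate 1 and 686 TPM in replicate 2, so the libraries were not alike in that tissue's RNA, and its part in the transcript differences between them was not tested. In bulk tissue, fewer cells of a type and less RNA per cell cannot be told apart.

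Most expressed NMD transcripts were rare. Their median level was 3 and 3.07 TPM, with quartiles of 1.77 and 6.29 TPM in replicate 1 and 1.77 and 6.23 TPM in replicate 2, and 203 and 209 reached 10 TPM. Levels were spread unevenly, since the 10 highest held 17.5% and 18.0% of the summed TPM of all 1385. All NMD transcripts together held 2.56% and 2.54% of the TPM of protein-coding genes, and the 1385 alone 2.24% and 2.23%. In expected counts, which do not correct for length, all NMD transcripts held 1.89% and 1.86%. NMD transcripts are shorter than coding ones, with a median of 1644 bases for the 1385 against 2610 bases for coding transcripts at the same minimum. The counts behind these levels were modest, with a median expected count of 121 and 115 and a lowest of 4 in each library. Under 50 counts were assigned to 304 and 336 of the transcripts. The deposited model of the first table gives a posterior SD for each count, and its median was 19.2% and 20.0% of the count here, against 8.13% and 8.34% for expressed coding transcripts.

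The other 5801 NMD transcripts stayed below the minimum in at least one library, most of them in genes that passed it. TPM was 0 in both libraries for 2605 of them, below 1 in both but not 0 throughout for 2590, and at or above 1 in one library only for 606. The gene itself reached a TPM of 1 in both libraries for 4448 of the 5801. Genes with an expressed NMD transcript had a median TPM of 24.3 and 24.99, and genes with annotated but no expressed NMD transcripts 6.62 and 6.77. The minimum is a cut through a continuous range: just inside it, Tmem25-203 stood at 1.00 and 1.01 TPM, Ssbp2-206 at 1.00 and 1.44 TPM and Zfp324-202 at 1.40 and 1.00 TPM. Just outside, Man2b1-202 stood at 0.99 and 1.87 TPM, Nr2c2-205 at 1.48 and 0.99 TPM and Brms1l-205 at 0.99 and 1.26 TPM.

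The highest NMD transcripts came from genes of protein folding, respiration, calcium transport and translation. Ppia-201, from the gene of the prolyl isomerase cyclophilin A, stood at 540.0 and 582 TPM, or 81.4% and 81.3% of the gene. The second table put it at 613 and 699 TPM, yet at 42.1% and 45.2% of the gene. Ppia-202, the leading coding transcript, was at 5.04 and 5.63 TPM in the first table and at 374 and 387 TPM in the second. The level of Ppia-201 was thus similar in both tables while its share of the gene was not. Ndufa3-204, a short transcript of a complex I subunit gene, stood at 199 and 227 TPM (91.8% and 92.4% of the gene) in the first table and at 17.8 and 0 TPM in the second. Atp2a2-203, from the gene of the calcium pump SERCA2 of the endoplasmic reticulum, stood at 162 and 178 TPM, 66.2% and 65.8% of the gene, and at 184 and 191 TPM in the second table. Its annotated frame is as long as the longest one of the gene, 3132 coding bases, and the class comes from a further exon junction 1258 bases after the stop. Eif4a2-210, from a translation initiation helicase gene, stood at 154 and 159 TPM in the first table and at 39.4 and 43.1 TPM in the second.

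**Figure D1:**
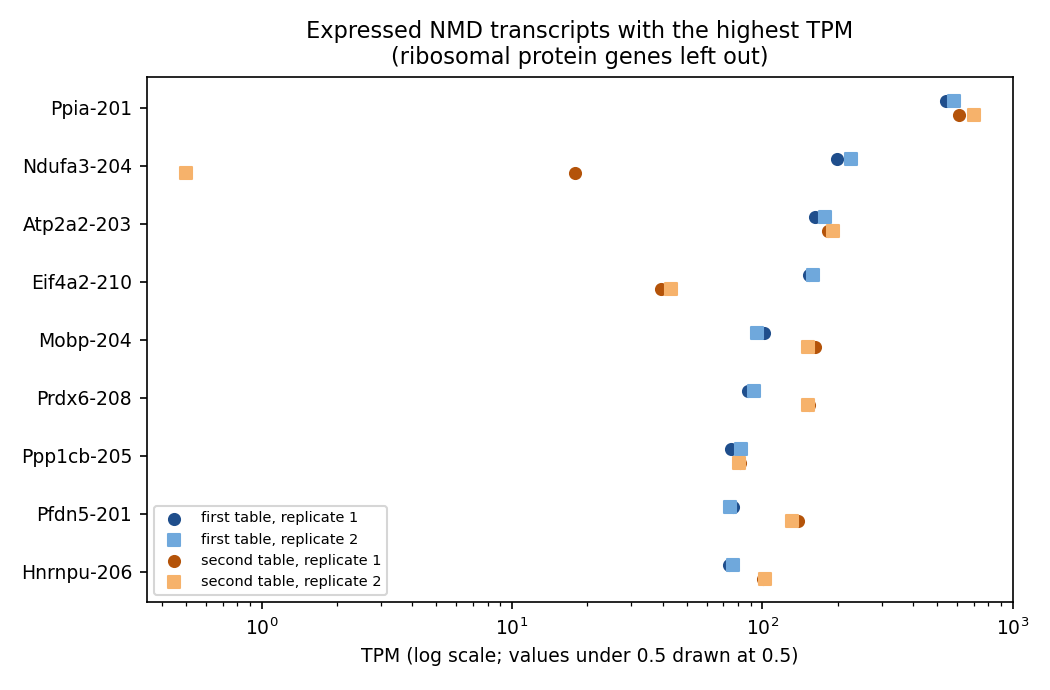
TPM (log scale) of 9 of the 12 expressed NMD transcripts with the highest mean TPM, those outside ribosomal protein genes, with the first table in blue and the second in orange, circles for replicate 1 and squares for replicate 2. Replicates lie close together within the first table, while Ndufa3-204 (whose second-table value of 0 TPM in replicate 2 is drawn at 0.5) and Eif4a2-210 lie far lower in the second.

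Others of the 12 had more similar shares in both tables. Mobp-204, from a myelin protein gene of oligodendrocytes, stood at 102 and 95.5 TPM in the first table and 163 and 152 TPM in the second, with 58.6% and 56.4% of the gene against 58.9% and 67.5%. Prdx6-208, from a peroxidase gene, omits 157 bases of exon that a coding transcript holds. It stood at 87.95 and 92.5 TPM, or 62.7% and 62.6% of the gene, against 55.3% and 50.5% in the second table. Ppp1cb-205, from the gene of a catalytic subunit of protein phosphatase 1, held 46.3% and 46.6% of its gene against 40.1% and 38.6%. In the first table the libraries of these 3 differed by under 3 percentage points, while for Mobp-204 the libraries of the second table lay further apart than the means of the tables. Ppia, Rpsa and the ribosomal protein genes have many near-identical copies in the genome, so how reads were divided is uncertain for them.

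The typical expressed NMD transcript was a minor product of its gene. Its share of the gene's TPM, as deposited with the first table, had a median of 14.3% and 14.7%, with quartiles of 7.45% and 27.1% in replicate 1 and 7.22% and 27.4% in replicate 2. By the mean of the libraries, 207 transcripts held under 5%, 262 held 5 to 10%, 521 held 10 to 25%, 291 held 25 to 50%, 68 held 50 to 75% and 36 held 75% or more. The TPM minimum removes transcripts with low shares in weakly expressed genes, so these shares describe the chosen transcripts and not the class. Over whole genes, the summed share of all NMD transcripts in the 1193 genes had a median of 18.9% and 18.7%, and it passed 50% in both libraries for 125 genes, of which 81 also passed it in both libraries of the second table. An NMD transcript was the leading transcript of its gene in both libraries in 215 cases (15.5%), where 39.0% of all expressed transcripts led their gene. In 18 of the 215 the gene has no other annotated transcript. Of the 215, 133 also led in both libraries of the second table.

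Over 50% of the gene's TPM was held in both libraries by 92 of the 1385, and by 56 of these in the second table too. Among genes that averaged 5 TPM or more, the highest shares fell into 2 kinds. Gm20716-201 (100% of the gene, 9.75 and 11.4 TPM), Gm49325-201 (100%, 12.8 and 7.57 TPM), Gm20683-201 (100%, 8.65 and 9.54 TPM) and Gm20605-201 (100%, 8.42 and 7.75 TPM) are the sole products of loci that span 2 neighbouring genes. They share exon junctions with Adnp and Dpm1, with Sumo3 and Ube2g2, with Rhbdl1 and Rhot2, and with Lrch4 and Sap25. There were 23 expressed NMD transcripts in genes without any coding transcript; all 23 share a junction with another gene, 22 with at least 2 other genes, and 20 held 100% of their locus in both libraries. For 18 of them, as the only annotated transcript of the gene, no other share is possible. Without them, 36 transcripts held over 50% in both libraries of both tables.

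In ordinary genes the highest shares were those of Ndufa3-204, described above, and of 3 others. Mnat1-203, from the gene of an assembly factor of the CDK-activating kinase, omits 74 bases and held 89.8% and 88.0% of the gene (9.85 and 9.04 TPM), with 88.3% and 84.6% in the second table. Rnf114-203, from a ubiquitin ligase gene, omits 151 bases and held 89.0% and 87.4% (18.0 and 19.5 TPM), with 62.1% and 49.7% in the second table. Mrps14-201, from a mitochondrial ribosomal protein gene, held 87.8% and 81.6% (23.8 and 21.8 TPM) in the first table but 2.02% and 0% in the second. Of the 3, Mnat1-203 alone had nearly the same share in both tables.

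The stop codon lay more than 50 bases upstream of the last exon junction in 1374 of the 1383 transcripts with an annotated stop, and 25 to 50 bases upstream in the other 9. The distance had quartiles of 189 and 866 bases, a median of 375 bases and a maximum of 9212 bases. Among 18103 expressed coding transcripts with several exons, 84 (0.464%) had a stop more than 50 bases upstream of the last junction. The class is defined partly by this distance, so the contrast describes the annotation and is no result of the measurement. The annotated frames were short, with a median of 24.7% of the longest coding sequence of the gene, and 1048 of the 1360 transcripts with a coding transcript in their gene had under 50%. For 344 transcripts the annotation does not contain the start of the frame. TGA ended 56.5% of the frames, TAA 22.8% and TAG 20.8%, against 50.5%, 26.5% and 23.0% in expressed coding transcripts. Among all annotated NMD transcripts with a stop they were 57.9%, 22.5% and 19.7%, close to the values of the expressed ones.

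**Figure D2:**
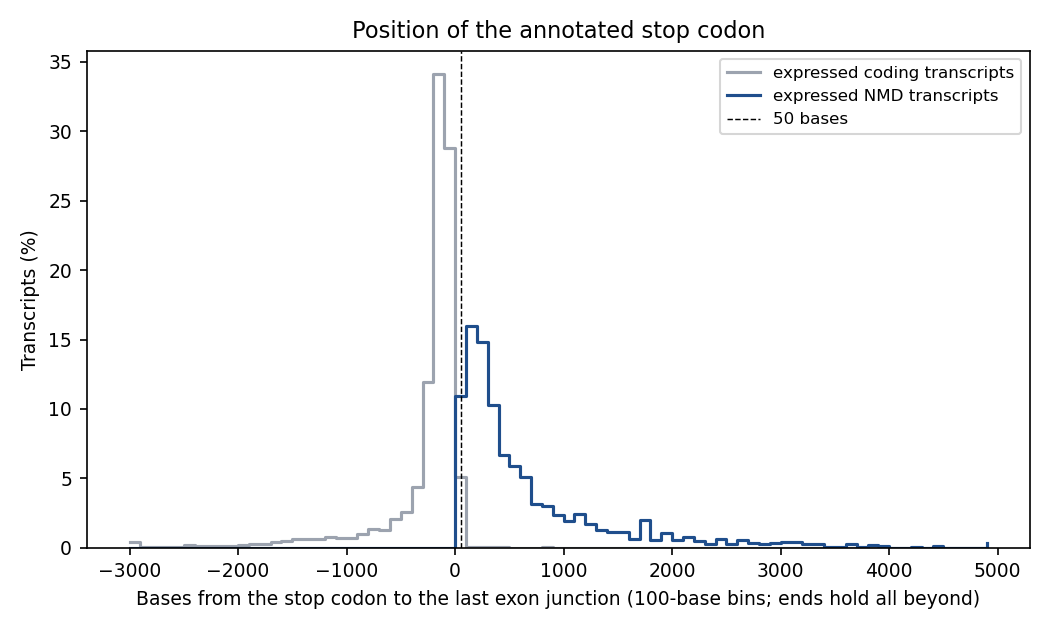
Distance in bases from the annotated stop codon to the last exon junction (x axis, 100-base bins, negative where the stop lies after the junction) as a percent of transcripts (y axis) for the 1383 expressed NMD transcripts with a stop and for expressed coding transcripts. NMD transcripts lie right of 0, with a median of 375 bases, and coding transcripts mostly left of it; the dashed line marks 50 bases.

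The stops lay in several kinds of structure. In 630 transcripts (45.6%) the stop lay in an exon that a coding transcript of the gene also has, although its own frame ends elsewhere. In 369 (26.7%) the exon overlapped a coding transcript's exon with different ends, and in 248 (17.9%) the exon was in no coding transcript. In 113 (8.17%) the stop was the very stop of a coding transcript, followed by additional splicing, and these had frames at a median of 85.8% of the longest. Among all 7186 annotated NMD transcripts the shares of these 4 kinds were 45.0%, 26.7%, 20.0% and 7.03%, so the expressed ones had nearly the annotation's composition. Median shares of gene TPM were 15.6%, 12.4%, 11.8% and 17.8% in the same order, differences of a few percentage points beside the interquartile range of all 1385 given above.

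**Figure D3:**
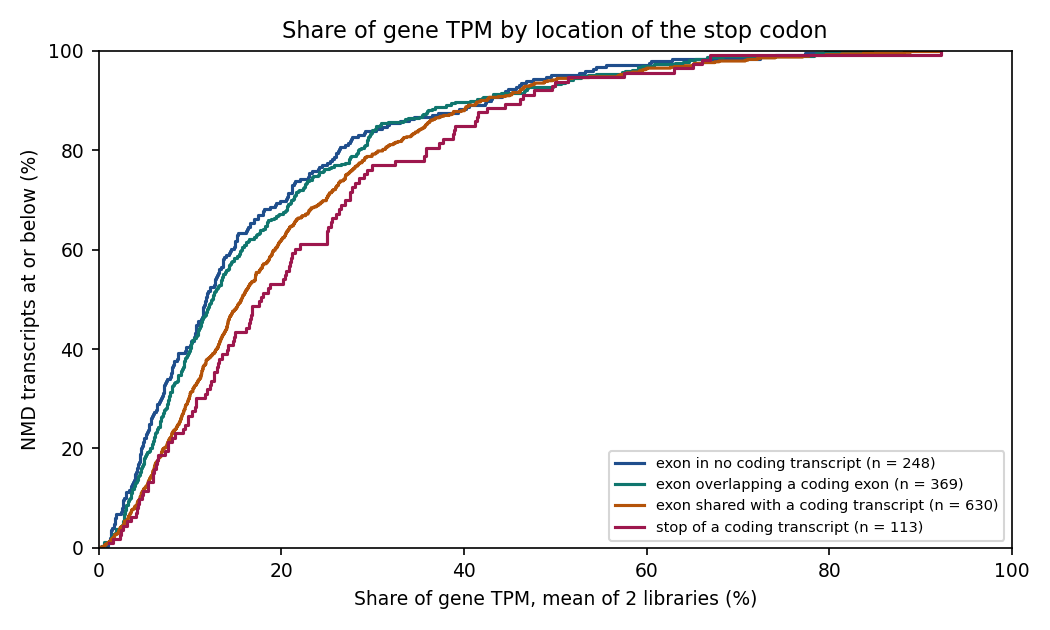
Cumulative percent of expressed NMD transcripts (y axis) by share of gene TPM, mean of the 2 libraries (x axis), for the 4 locations of the stop codon. The curves for exons in no coding transcript and for overlapping exons run to the left, with medians of 11.8% and 12.4%, and that for stops of a coding transcript to the right, with 17.8%.

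Cassette exons with a stop and exon skips of a length that is no multiple of 3 both occurred, as in the whole annotation. Of the 248 transcripts with the stop in an exon of no coding transcript, 212 (85.5%) had it in a cassette exon. These exons had a median length of 113.5 bases and quartiles of 80 and 159.5 bases. The transcripts had a median share of 12.1% and 12.03% of the gene. In the whole annotation a cassette exon held the stop in 1162 of 1435 such transcripts (81.0%). Of the 212, 173 also reached 1 TPM in each library of the second table, where 80.1% of all 1385 did. Skipping of exons of a coding transcript, upstream of a stop in a shared exon, was found in 366 of the 1385 transcripts. Of all 7186 annotated ones, 1878 had it. The shortest skipped length was not a multiple of 3 in 361 of the 366 (98.6%), and in 1831 of the 1878 (97.5%). Its median was 109 bases, and these transcripts had a median share of 16.1% and 16.5%. Such a length shifts the frame only within the coding part, and the place of the skip relative to the start was not checked.

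Splicing regulators contributed 52 expressed NMD transcripts from 37 of 88 genes in 3 lists. Over the whole annotation, 1193 of the 4576 genes with an NMD transcript had an expressed one. Of 13 SR protein genes, which code for serine and arginine-rich splicing activators, 11 have annotated NMD transcripts and 7 had an expressed one, 1 each, and all 7 reached a TPM of 1 in both libraries of the second table (83.8% of all expressed transcripts did). The stop lay in an exon of no coding transcript in 5 of the 7, a cassette in 4. Srsf9-205, with a 358-base cassette exon, was the leading product of its gene at 21.15 and 21.02 TPM, with 60.8% and 60.2% of the gene in the first table and 49.0% and 53.9% in the second. The leading coding transcript, Srsf9-201, stood at 10.8 and 12.2 TPM in the first table. Srsf3-201, whose exon is printed above, held 17.7% and 16.3% of the gene at 9.48 and 9.59 TPM, and 31.0% and 30.4% in the second table. Tra2a-202, with the 306-base exon, held 17.2% and 13.2%, and 36.9% and 33.7% in the second table.

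The other SR protein transcripts covered a wider range. Srsf6-201 differed between the libraries, with 9.05 and 12.8 TPM and 23.9% and 33.1% of the gene, and the second table had the same order at 29.5% and 38.0%. Srsf1-204 held 12.7% and 13.99% of the gene at 11.3 and 12.9 TPM, with 14.01% and 15.1% in the second table. Tra2b-206, with a 276-base cassette exon in the gene of a Tra2 partner of SR proteins, held 12.05% and 17.7% at 3.88 and 5.21 TPM. Srsf4-203 was the lowest, with 4.04% and 3.95%. Over the 7 the median share was 15.2% in the first table and 30.7% in the second, and the mean share was higher in the second table for 6 of the 7 and lower for Srsf9-205.

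**Figure D4:**
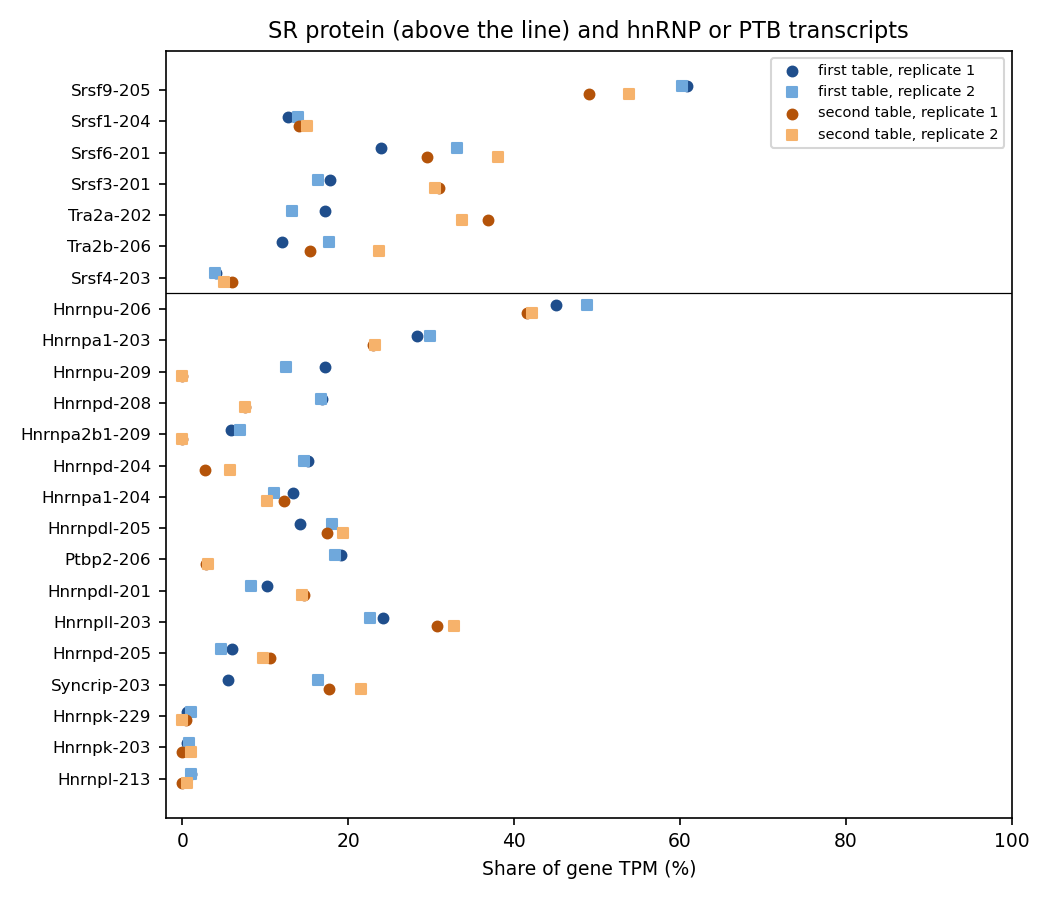
Share of gene TPM (x axis, percent) of the expressed NMD transcripts of SR protein genes (above the line) and of hnRNP and PTB genes (below), in the first table (blue) and the second (orange), circles for replicate 1 and squares for replicate 2. Srsf9-205 and Hnrnpu-206 have the highest shares in both tables, and Hnrnpu-209 and Hnrnpa2b1-209 stand near 0 in the second table only.

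Of 25 hnRNP and PTB genes, whose RNA-binding proteins often act as splicing repressors, 14 have annotated NMD transcripts and 10 had 16 expressed ones. Of the 16, 11 passed the minimum in the second table, where 80.1% of all 1385 did. Hnrnpu-206, from the gene of a nuclear scaffold and RNA-binding protein, was by far the highest at 73.9 and 76.4 TPM, with 45.1% and 48.7% of the gene, and 41.5% and 42.2% in the second table. Its frame has 99.1% of the length of the longest one and ends 183 bases before the last junction. Hnrnpa1-203 stood at 26.7 and 30.2 TPM, with 28.3% and 29.9% of the gene. Hnrnpa1-204 stood at 12.6 and 11.1 TPM, with 13.4% and 11.0%. Both carry the stop of a coding transcript, and they differ before it, with 960 and 1119 coding bases, and in what is spliced after it. Hnrnpll-203, with the 83-base cassette exon, held 24.2% and 22.6% of the gene, and 30.7% and 32.7% in the second table. Hnrnpdl-201 and Hnrnpdl-205 held 10.2% and 8.22%, and 14.1% and 18.0%. The tables were apart for Hnrnpu-209, a 351-base transcript with 28.2 and 19.6 TPM in the first and 0.0031 and 0 TPM in the second, and for Hnrnpa2b1-209, with 11.6 and 13.7 TPM against 0 in both. Ptbp2-206, from a neuronal splicing repressor gene, omits 34 bases and held 19.1% and 18.4% of the gene against 2.78% and 3.10% in the second table.

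In the third list, 50 other splicing regulators, 33 genes have annotated NMD transcripts and 20 had 29 expressed ones. Of the 29, 22 passed the second minimum, where 80.1% of all 1385 did. Ddx5-208, from an RNA helicase gene, stood at 74.1 and 66.7 TPM with 24.5% and 21.6% of the gene, and 19.5% and 18.0% in the second table. Khdrbs3-204, from the gene of the STAR-family protein SLM2, held 21.2% and 20.6% against 22.1% and 21.1%. Celf2-228, from the gene of a CELF splicing regulator, held 14.9% and 16.3% against 13.8% and 14.5%. These 3 differed by under 10 percentage points between libraries and between tables. Clk1-210, from the gene of a kinase that phosphorylates SR proteins, omits 91 bases and held 28.1% and 36.4% of the gene, against 19.3% and 32.3%, so the libraries differed in the same direction in both tables.

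The genes of the NMD machinery itself formed a further list. Of 19 genes for UPF, SMG and exon junction complex proteins, all with a mean of 1 TPM or more, 4 have annotated NMD transcripts, 6 in number, and no such transcript met the rule. Over the whole class 19.3% did, and with 6 transcripts nothing particular to these genes can be read from this. Smg5-202, from the gene of a decay adaptor, came nearest, at 1.27 and 0.29 TPM in the first table and 2.83 and 1.46 TPM in the second. Smg1-204, from the gene of the kinase of UPF1, was at 0 in the first table and at 4.41 and 5.68 TPM in the second. None of 12 genes of the stress response that NMD is known to restrain, such as Atf4, has an annotated NMD transcript, so the rule could not select one.

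Ribosomal protein genes gave 13 expressed NMD transcripts from 10 of 19 genes with annotated ones, and the tables were far apart for them. By the second table, 7 of the 13 passed the minimum, where 80.1% of all 1385 did. The median share was 9.31% in the first table and 0.937% in the second. Rpsa-206, from the gene of a small-subunit protein also known as the laminin receptor, held 79.7% and 79.4% of the gene at 141 and 145 TPM, and 31.3% and 36.1% in the second table. Rpl13a-202, from a large-subunit protein gene, went from 50.3 and 55.04 TPM in the first table to 0 and 4.37e-08 TPM in the second. The opposite held for Rpl27a-205, with 6.67 and 4.89 TPM in the first table and 372 and 391 TPM in the second.

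Respiratory chain genes gave 9 from 8 of 20 genes with annotated ones, with a median share of 21.4%. Of the 9, 6 passed the second minimum, against 80.1% of all 1385. Atp5f1-203, from a gene of the ATP synthase stalk, includes a 167-base cassette exon and held 43.4% and 48.2% of the gene at 43.4 and 52.3 TPM, against 35.5% and 45.0% in the second table. Ndufs4-204, from a complex I subunit gene, includes a 50-base cassette exon and held 46.3% and 42.7%, against 43.1% and 55.8%. A second transcript of the gene, Ndufs4-202, omits 79 bases and held 25.1% and 33.4%. The 2 NMD transcripts of Ndufs4 thus made up most of the gene's TPM in both libraries. Ndufa10-207 held 20.5% and 22.2% against 29.2% and 25.3%.

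Of 46 synaptic genes, all averaging 1 TPM or more, 9 have annotated NMD transcripts, 11 in number. Of the 11, 7 from 6 genes were expressed (63.6%, against 19.3% of the whole class), with a median share of 7.79%. The other lists with an expressed NMD transcript were also above 19.3%, from 23.3% for transfer RNA ligase genes to 57.1% for hnRNP and PTB genes. With 11 transcripts nothing particular to synaptic genes can be read from this. Gria3-206, from an AMPA receptor subunit gene, held 21.2% and 22.1% of the gene (13.1 and 14.3 TPM) in the first table and 2.17% and 1.78% in the second. Nrxn3-213 and Nrxn3-208, from a presynaptic adhesion gene, held 7.33% and 9.99%, and 8.19% and 8.23%, with similar second-table shares of 8.43% and 10.1%, and 6.27% and 5.94%. Shank3-208, from a postsynaptic scaffold gene, held 5.2% and 6%, and 15.5% and 17.4% in the second table. The transfer RNA ligase genes gave 7 from 6 of 12 genes with annotated ones, with 4 passing the second minimum (80.1% of all 1385 did). Qars-231, of the glutamine ligase, held 20.0% and 34.9% in the first table and 15.6% and 11.3% in the second, where the order of the libraries was reversed. Nars-209, of the asparagine ligase, stood at 12.8 and 8.68 TPM in the first table and at 0 in both libraries of the second.

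The second deposited transcript table came from the same reads, so it compares quantifications and is not a further sample. A level of 1 TPM or more in each of its libraries was found for 1110 of the 1385 (80.1%), where 83.8% of all transcripts expressed by the first table did. The share was 87.5% for coding transcripts, 82.4% for retained-intron transcripts and 69.9% for those classed as processed transcripts, so NMD transcripts stood between the last 2. At the other end, 112 (8.09%) were below 0.01 TPM in both libraries, against 8.53% of all, and 87 of them were exactly 0. The second table alone would have chosen 2197 NMD transcripts, so the 1110 shared ones were 80.1% of the first list but 50.5% of the second. Among the chosen transcripts, ranks were closer between the libraries of the first table than between the tables. The rule set a minimum in both of those libraries and none in the second table, which favours agreement of the libraries. The tables were compared by the mean of the libraries, so the comparisons are not on equal terms. Spearman's rho of TPM over the 1385 was 0.878 between the libraries and 0.537 between the tables, and that of shares 0.935 and 0.655; these are descriptions, since transcripts of a gene share reads and the libraries of a table its model. The share of the gene differed by a median of 2.14 percentage points between libraries and of 5.50 points between tables, and by over 10 points for 97 and 408 transcripts.

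The tables also differed in scale. Protein-coding genes held 43.9% and 45.7% of the TPM in the first table and 75.7% and 78.7% in the second. On the log2 scale, TPM in the second was higher by 0.62 at the median of all expressed transcripts and by 0.70 at the median of the NMD ones. As deposited, 725 NMD transcripts (52.3%) lay within 2-fold of each other in the tables, against 65.2% of all, 412 (29.7%) were at least 2-fold higher in the second (19.4% of all) and 248 (17.9%) at least 2-fold lower (15.4%). With both tables rescaled to the same total over nuclear protein-coding genes, the medians were -0.16 and -0.09, and the direction of the split turned: 879 (63.5%) were within 2-fold (72.2% of all), 153 (11.0%) at least 2-fold higher (6.83% of all) and 353 (25.5%) at least 2-fold lower (21.0% of all). On either scale a smaller share of the NMD transcripts than of all transcripts lay within 2-fold.

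**Figure D5:**
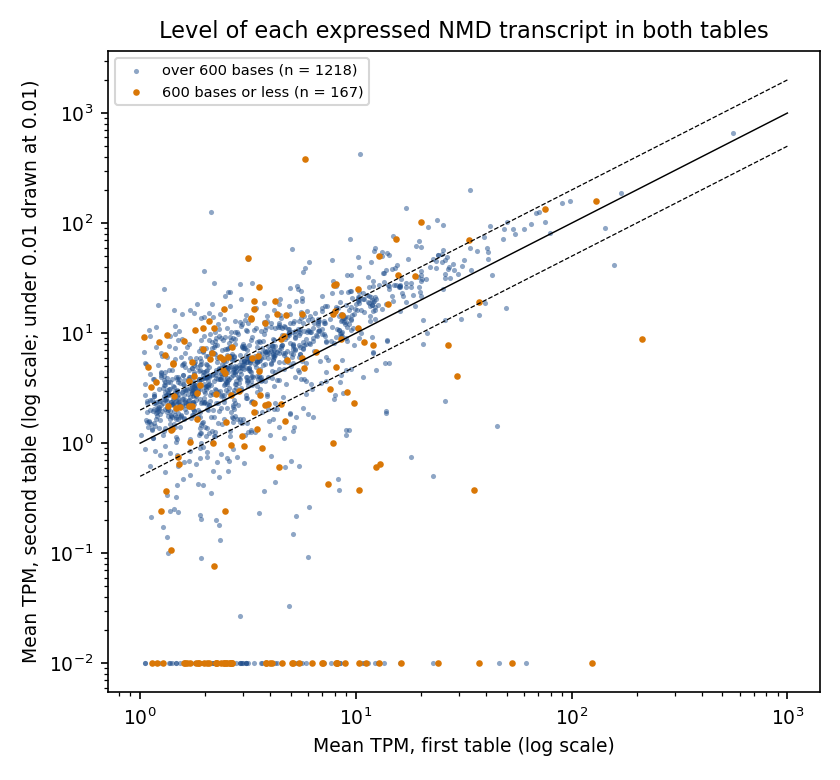
Mean TPM of each expressed NMD transcript in the first table (x axis) and the second (y axis), both on log scales, with values under 0.01 drawn at 0.01; the solid line marks equal TPM and the dashed lines 2-fold. Of the 167 transcripts of 600 bases or less (orange), 49 lie on the bottom row of 112.

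Whether a transcript reached the second minimum moved with its length. In the first table the effective length used for the TPM is the length less 99 bases, and in the second it is about the length less 339 and 345 bases for long transcripts. Of transcripts up to 400 bases, 3 of 25 (12%) passed, of those over 400 and up to 600 bases 81 of 142 (57.0%), over 600 and up to 1000 bases 253 of 320 (79.1%), over 1000 and up to 2000 bases 266 of 318 (83.6%), over 2000 and up to 4000 bases 334 of 386 (86.5%), and above that 173 of 194 (89.2%). Coding transcripts of the same lengths passed in 13.8%, 60.8%, 79.3%, 88.0%, 91.4% and 95.5% of cases. It moved with the model's own spread too, since 750 of 848 (88.4%) with a mean posterior SD of at most 25% of the count passed, and 360 of 537 (67.04%) of the others. An exon junction of its own, found in no other annotated transcript on the strand, was held by 1103 of the 1385, and 886 of these (80.3%) passed. Of 100 with own exonic bases but no own junction 95 (95.0%) passed, and of the 182 with neither 129 (70.9%). The part of length and of shared sequence in the differences between tables was not tested.

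Single transcripts show how far apart the tables can be. Rab11b-204, from the gene of a recycling endosome GTPase, held 43.7% and 44.4% of the gene at 59.4 and 63.5 TPM in the first table and was at 0 in both libraries of the second, although it has a junction of its own and a posterior SD of 2.92% and 2.67% of the count. Hsp90ab1-206 (50.8 and 41.0 TPM), Unc80-202 (22.4 and 23.0 TPM) and Gm1673-204 (16.6 and 15.7 TPM) were likewise at 0 in the second table. Within the first table the log2 ratios of replicate 2 to replicate 1 of these 4 ran from -0.31 to 0.10. In the other direction Ndrg4-210, from a neural gene of the NDRG family, went from 7.66 and 13.2 TPM to 411 and 435 TPM, with 1.42% and 2.31% of the gene in the first table and 43.2% and 44.7% in the second. Rnasek-202 went from 1.62 and 2.62 TPM to 118 and 137 TPM, and Fkbp3-205 from 1.02 and 1.57 TPM to 31.9 and 18.7 TPM.

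The rule required 1 TPM in both libraries of the first table, so the agreement of these libraries describes the chosen transcripts only. The ratio of replicate 2 to replicate 1 lay within 1.2-fold for 728 of the 1385 (52.6%), against 62.6% of all expressed transcripts chosen by the same minimum, with a median log2 ratio of 0.01, against 0.04 for all expressed transcripts. At least 2-fold apart were 89 (6.43%), where 4.25% of all expressed transcripts were, 50 of them higher in replicate 2 and 39 in replicate 1. With at least 50 expected counts in both libraries it was 45 of 1017 (4.42%, against 2.09% of all). The second table gave 52 of the 89 a TPM of at least 1 in each library, and 8 of these differed 2-fold in the same direction there; 7.14% of all transcripts expressed by the second table differed 2-fold between its libraries in either direction. Most of the 2-fold differences between libraries were thus not seen in both tables.

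The 4 transcripts with the largest ratio in each direction had a wide model spread in the library where they were lower, from 66.3% to 132% of the count. Mark4-205, from a microtubule affinity kinase gene, stood at 6.47 and 1.04 TPM, with a posterior SD of 33.4% of the count in replicate 1, while the second table gave 20.3 and 17.6 TPM. Agtpbp1-214, from the gene of a tubulin deglutamylase, stood at 1.27 and 4.53 TPM, against 23.7 and 32.7 TPM in the second table. Syncrip-203, from an hnRNP gene, stood at 1.30 and 4.41 TPM, against 7.84 and 11.97 TPM, and Mms19-204 at 1.02 and 3.46 TPM, against 8.20 and 9.94 TPM. Galnt1-207, from a gene of protein O-glycosylation, was higher in replicate 2 in both tables, at 1.05 and 4.75 TPM and at 0.792 and 9.10 TPM. Kctd20-209 stood at 3.77 and 1.16 TPM and Mfsd13a-205 at 3.39 and 1.10 TPM, and neither reached a TPM of 0.5 in the second table.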

How the data were processed

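Each library has 1 deposited gene table and 2 transcript tables, made on mm10 with GENCODE M21 per the deposited notes, with tools not given in the sources used here. The gene table and first transcript table, per the file headers, have the column layout of RSEM, were derived from a transcriptome alignment and give an expected count, the TPM, the percent of the gene's TPM held by each transcript, and a posterior SD of the count (a score). The second transcript table, derived from the reads, has the layout of kallisto, and the authors deposited an estimated count and TPM in it; its shares of gene TPM were computed here. Whether counting used strand is not stated, so overlapping genes on opposite strands are uncertain, and the CAST/EiJ allele was not analysed here.

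Transcript classes came from the second table's identifiers. Exons, stops and junctions came from the GENCODE M21 annotation, in which all 141767 transcripts were found. Levels are the deposited TPM as given, with no pseudocount. The second table's effective lengths were read from it. The members, gene lists and tests were chosen with earlier results of these data known. Transcripts named were the 12 with the highest TPM, the 8 with the highest share at a gene TPM of at least 5, the leading 4 of each gene list, the 4 with the largest ratio in each direction between tables and between replicates, and the 3 nearest the minimum on each side; other members of the lists and the NMD factor transcripts were named after their values were seen, and some transcripts that the rule selects are not reported here. The script that counts 2-fold ratios between libraries was checked on simulated counts with known fold changes. Python 3.11.15, pandas 2.3.3, numpy 2.4.6 and scipy 1.17.1 were used.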

Additional observations from a re-analysis of the deposited data

How the results depend on the processing

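The number of expressed NMD transcripts, 1385, was 856 at a minimum TPM of 2, 2197 when the second table decided, and 2123 with TPM rescaled over nuclear protein-coding genes; by single libraries it was 1681 to 1695. The median share of gene TPM, 14.3%, was 12.4% in the second table, 9.998% in expected counts, 13.8% in genes with a TPM of at least 5, 19.1% at a minimum TPM of 2, and 13.26% to 13.3% by single libraries. All NMD transcripts held 2.55% of protein-coding gene TPM, 3.21% in the second table and 1.87% in expected counts. The count of 2-fold differences between libraries, 89, was 41 with a pseudocount of 0.5 TPM, 24 with 1 TPM, and 45 at 50 or more expected counts. Stops over 50 bases before the last junction numbered 847 at a minimum TPM of 2, where fewer transcripts remain. The other alternatives moved these counts by less than 1.5 times. Restricting the table comparison to transcripts with a junction or bases of their own, chosen after seeing the data, left 981 that passed the second minimum and 637 within 2-fold. No paired analysis was possible because there is only 1 group. Depth limits the 304 and 336 transcripts with under 50 counts. The causes of these differences were not tested.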
